A study of Mus musculus with 8 samples.

Results

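The genes of the unfolded protein response and of the integrated stress response were followed in cells from BMPR2 DELX mutant mice and ROSA control mice. They form a list of 35 genes chosen by name, among 49671 gene rows in each of the deposited count files, and all 35 had enough counts to be among the 14887 genes tested. RNA sequencing of polyadenylated RNA gave 8 mouse samples that the labels call adipocytes, 4 per group. The mutant group is named after BMPR2, the type II receptor for bone morphogenetic proteins, and the labels give no promoter, age, tissue depot or culture condition for either group, and does not say what DELX and ROSA stand for beyond mutant and control. Nothing given states that samples of a group are separate animals, so p-values measure the spread between these samples, which may be technical.

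In the unfolded protein response, unfolded proteins in the endoplasmic reticulum (ER) draw the chaperone BiP, encoded by Hspa5, away from the membrane sensors IRE1, PERK and ATF6. Cleaved ATF6 and the spliced form of XBP1 then switch on genes for ER chaperones and for ER-associated degradation, the route by which misfolded proteins are exported and destroyed. PERK and other kinases phosphorylate the initiation factor eIF2, which lowers translation in general and raises that of ATF4, the factor behind the integrated stress response. ATF4 targets serve amino acid supply, redox balance, feedback on eIF2 and, through CHOP (Ddit3), cell death. Cells that secrete much matrix or other protein depend on these chaperones. The list was read in 4 role groups, with 14 ER chaperones and folding enzymes, 7 genes of ER-associated degradation, 5 sensors and transcription factors and 9 ATF4 targets.

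The promoters of these genes were searched for short elements through which the arms are known to act. Of the 35 genes, 31 were found in a table of RefSeq promoters on GRCm38.p6 (all but Atf6, Hyou1, Derl1 and Manf). Each promoter ran from 250 bases before to 50 bases after a start site. The ER stress response element (ERSE), searched on both strands as CCAAT and CCACG with 9 bases of any kind between them, was found in 9 of the 31 genes and in 0.137% of all 27025 genes of the table. All 9 belong to the chaperones (7 of 12 with a promoter) or to ER-associated degradation (2 of 6). The related ERSE-II, searched as ATTGG and CCACG with 1 base of any kind between them, was found in Dnajb11 and Herpud1 and in 0.0444% of all genes. The core of the element bound by ATF4 and C/EBP factors (CARE), searched as TGATGNAA, was found in Asns, Chac1, Trib3 and Vldlr, which are 4 of the 9 ATF4 targets, in Herpud1, and in 4.51% of all genes. The XBP1 core TGACGTGG was found in 0 of the 31 and in 0.714% of all genes, which says only that these letters are not in these windows. In the listed genes no match of one element overlapped one of another. Dnajb9, Pdia3 and Ppp1r15a, described further on, held no match of any of these elements in these windows. The promoters below are examples of those with a match. They are in lower case with the match in capitals, 5′ to 3′ on the strand of the gene.

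Hspa5 promoter, chr2:34771840-34772139, plus strand: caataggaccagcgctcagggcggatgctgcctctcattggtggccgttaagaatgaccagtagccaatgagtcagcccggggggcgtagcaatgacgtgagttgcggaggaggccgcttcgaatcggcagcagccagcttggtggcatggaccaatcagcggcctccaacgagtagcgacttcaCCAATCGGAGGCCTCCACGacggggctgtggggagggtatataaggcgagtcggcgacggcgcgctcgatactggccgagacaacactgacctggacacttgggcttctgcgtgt
Calr promoter, chr8:84846882-84847181, minus strand: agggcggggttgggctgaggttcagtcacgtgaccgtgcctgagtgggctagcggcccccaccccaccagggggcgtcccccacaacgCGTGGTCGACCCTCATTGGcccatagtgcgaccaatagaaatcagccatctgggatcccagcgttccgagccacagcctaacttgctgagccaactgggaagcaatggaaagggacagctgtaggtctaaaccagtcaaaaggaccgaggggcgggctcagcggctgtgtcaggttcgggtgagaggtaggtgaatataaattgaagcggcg
Hsp90b1 promoter, chr10:86705395-86705694, minus strand: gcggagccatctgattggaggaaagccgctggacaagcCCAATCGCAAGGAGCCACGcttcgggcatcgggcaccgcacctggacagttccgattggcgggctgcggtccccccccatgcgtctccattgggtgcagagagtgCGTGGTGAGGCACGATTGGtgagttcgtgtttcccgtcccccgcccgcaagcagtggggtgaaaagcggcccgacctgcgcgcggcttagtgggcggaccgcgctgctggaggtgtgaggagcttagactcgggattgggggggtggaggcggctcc
Herpud1 promoter, chr8:94386179-94386478, plus strand: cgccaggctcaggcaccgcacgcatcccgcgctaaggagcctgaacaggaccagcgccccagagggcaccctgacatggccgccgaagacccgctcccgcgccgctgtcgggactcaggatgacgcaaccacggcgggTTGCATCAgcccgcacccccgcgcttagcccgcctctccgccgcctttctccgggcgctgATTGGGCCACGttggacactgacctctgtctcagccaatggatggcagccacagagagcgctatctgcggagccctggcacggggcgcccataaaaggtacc
Chac1 promoter, chr2:119350992-119351291, plus strand: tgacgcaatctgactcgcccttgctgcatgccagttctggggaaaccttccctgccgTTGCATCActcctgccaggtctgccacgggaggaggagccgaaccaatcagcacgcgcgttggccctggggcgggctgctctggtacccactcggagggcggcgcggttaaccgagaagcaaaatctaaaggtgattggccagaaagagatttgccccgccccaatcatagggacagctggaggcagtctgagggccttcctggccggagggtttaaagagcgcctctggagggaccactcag
Vldlr promoter, chr19:27216770-27217069, plus strand: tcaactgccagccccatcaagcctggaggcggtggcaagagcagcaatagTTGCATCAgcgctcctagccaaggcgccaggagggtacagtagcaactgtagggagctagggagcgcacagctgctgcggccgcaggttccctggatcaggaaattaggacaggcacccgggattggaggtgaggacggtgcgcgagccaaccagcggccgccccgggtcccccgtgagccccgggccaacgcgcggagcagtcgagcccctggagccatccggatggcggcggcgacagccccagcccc

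Only exact letters were searched, so near matches were not counted. In Hspa5 the ERSE match ends 47 bases before the start site, and in Calr it lies on the other strand and ends 144 bases before it. Hsp90b1 holds 2 copies, ending 194 and 89 bases before the start. Herpud1, the ER membrane gene that joins the degradation machinery, holds an ERSE-II and a CARE core, so letters of both arms stand in its promoter. In Chac1, a glutathione-degrading enzyme induced by ATF4, the CARE core ends 186 bases upstream, and in Vldlr, the very low density lipoprotein receptor, it ends 193 bases upstream of the downstream one of its RefSeq starts.

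**Figure D1:**
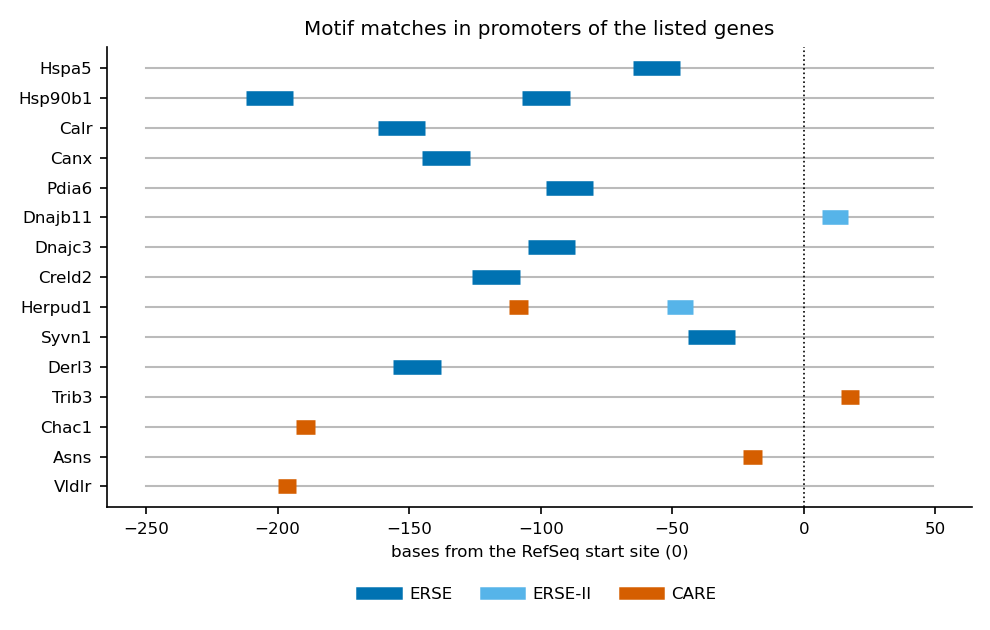
Matches of the ERSE, ERSE-II and CARE letters in RefSeq promoters (horizontal axis: bases from the start site, grey line: the promoter window), 1 row per listed gene with a match. ERSE matches stand in 7 chaperone genes and 2 degradation genes, CARE matches in 4 ATF4 targets and Herpud1.

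Sequencing depth was 28799445 to 43684785 counts assigned to genes per library, so 3 counts correspond to 0.0687 to 0.104 counts per 1e6 counts (CPM). The least abundant listed gene, Derl3, had at least 15 counts in every library. Counts of Bmpr2 itself were 199 to 237 CPM in BMPR2 DELX and 182 to 216 CPM in ROSA and overlapped (log2 fold change 0.10 ± 0.08 SE, edgeR adjusted p 0.47), and such counts cannot tell whether an exon is missing from its transcripts. Of 10 adipocyte markers, 7 stayed under 1 CPM in all libraries, Adipoq among them, and 5 of these, including Plin1, Lep and Cidec, were never above 3 counts. The other 3 were present, with Lpl called higher (210 against 140 CPM, log2 fold change 0.58, edgeR adjusted p 0.024, lost in 4 of 8 fits without 1 library), Fabp4 at 49.9 and 61.0 CPM and Pparg at 21.8 and 16.1 CPM in BMPR2 DELX and ROSA, and the list summed to 252 to 308 CPM in BMPR2 DELX and 201 to 234 CPM in ROSA. The 10 fibroblast and contractile genes summed to 18357 to 26269 CPM in BMPR2 DELX and 19402 to 24281 CPM in ROSA, and 1 of them, Col3a1, was called higher (1145.5 against 481 CPM, log2 fold change 1.25, edgeR adjusted p 0.0013, called without each library in turn). Secretory B cells, which carry a high level of this pathway, were near absent by their markers, with 5 of 6 under 1 CPM and Mzb1, Ighm and Pou2af1 at most 3 counts. The remaining one, Sdc1, which other cells also express, was called higher and made the list sum to 245 to 330 CPM in BMPR2 DELX and 111 to 149 CPM in ROSA. The 8 endothelial markers summed to 294 to 1310.5 CPM in BMPR2 DELX and 567 to 1303 CPM in ROSA, the 8 epithelial markers to 22.8 to 55.5 and 32.3 to 46.8 CPM. Of the latter, 1 (Pax8) was called higher, at 0.290 to 4.49 CPM in BMPR2 DELX and 0.058 to 0.315 CPM in ROSA. This call was lost in 7 of 8 fits without 1 library. Krt8 and Cdh16, not called, had log2 fold changes of 3.14 and 3.02 and, like Pax8, were highest in BMPR2 DELX 3. Their means were 5.16 and 1.79 CPM in BMPR2 DELX and 0.586 and 0.214 CPM in ROSA. Krt19, also not called, went the other way, at 12.1 against 26.4 CPM (log2 fold change -1.12, edgeR adjusted p 0.052). All its BMPR2 DELX libraries lay below all ROSA libraries. Krt7 and Krt18, not called either, had means of 5.68 against 3.17 CPM and 14.6 against 5.84 CPM. The 9 macrophage and leukocyte markers summed to 37.3 to 70.0 CPM in BMPR2 DELX and 25.0 to 36.3 CPM in ROSA, with 5 of them under 1 CPM in all libraries. The largest part of these sums was Csf1r, not called, at 29.0 and 22.0 CPM with overlapping groups. In this list 1 gene (Cd68) was called higher, at 6.45 against 3.92 CPM, a call lost in 2 of 8 fits without 1 library. The part of all these marker differences in the results was not tested. The 18 immediate early genes had their highest summed level in ROSA 1 and ROSA 2, at 2558 and 2847 CPM, 1244.5 and 1219.5 CPM in ROSA 3 and ROSA 4, and 987 to 1055 CPM in BMPR2 DELX.

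Levels are CPM scaled by trimmed mean of M values (TMM) factors, and a mean is given ± SD over 4 libraries. A difference is the log2 fold change, BMPR2 DELX relative to ROSA, given with its standard error (SE). It was tested with edgeR (quasi-likelihood), adjusted by Benjamini-Hochberg over all 14887 genes, and called at an adjusted p below 0.05. Of all genes tested, 9.10% were called, 5.15% lower and 3.96% higher in BMPR2 DELX. The higher share of the calls was 43.5%, and 54.8% with upper-quartile factors. Of the 35 genes, 6 were called (17.1%), all 6 lower. The 6 were Dnajb9, Calr, Pdia3 and Hsp90b1 among the chaperones and Ppp1r15a and Chac1 among the ATF4 targets. No gene (0) was called higher by edgeR, with 3 higher at an unadjusted p below 0.05, 1 called higher by DESeq2 (Ddit4) and 0 by voom. An unadjusted p below 0.05 was reached by 16 of the 35, 13 of them lower, against 26.3% of all genes. The median log2 fold change was -0.12 over the 35 genes and 0.005 over all genes.

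**Figure D2:**
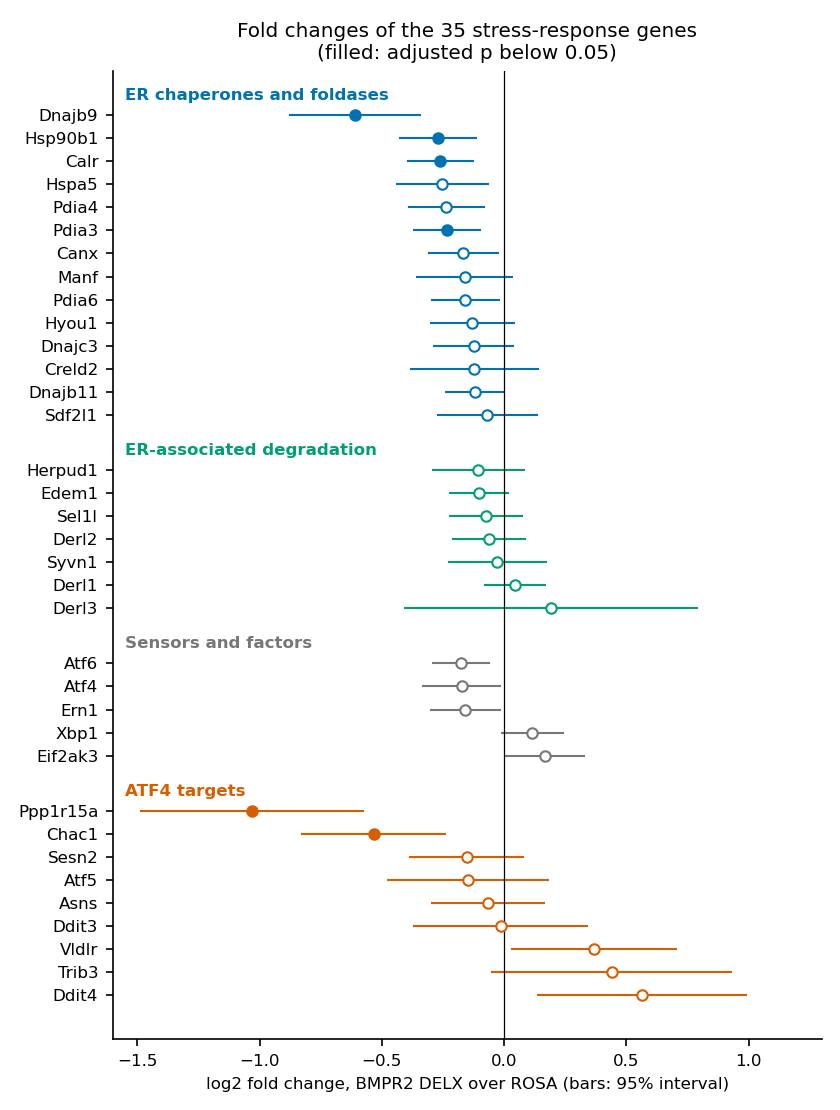
Log2 fold change of BMPR2 DELX over ROSA for each of the 35 genes (points, with 95% intervals of the edgeR fit), grouped by role. Filled points passed an adjusted p below 0.05, and all 14 chaperones lie below 0 while ATF4 targets lie on both sides.

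Every one of the 14 ER chaperones and folding enzymes had a negative log2 fold change, from -0.61 to -0.07 with a median of -0.16, against 49.3% negative among all genes. Of these, 4 were called lower and 10 did not pass, where 5.15% of all genes were called lower. An unadjusted p below 0.05 was reached by 8 of the 14, against 26.3% of all genes. All BMPR2 DELX libraries lay below all ROSA libraries for 8 of the 14, and for 9.65% of all genes. The signs were the same with relative log expression and upper-quartile factors, but Sdf2l1 and Creld2 turned to 0.015 and 0.012 without ROSA 3. The TMM factors were 1.001 to 1.062 in BMPR2 DELX and 0.918 to 0.993 in ROSA. This scaling thus lowers BMPR2 DELX levels relative to ROSA, and no fit without scaling factors was run. In bulk RNA, fewer cells of a type and less RNA per cell cannot be told apart.

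Dnajb9 (ENSMUSG00000014905, GRCm38 chromosome 12, 44205559 to 44210326) encodes ERdj4, a J-domain partner of BiP that also holds IRE1 in check. Its level was 34.1, 23.8, 31.4 and 28.0 CPM in BMPR2 DELX 1 to 4 and 43.0, 50.5, 47.0 and 38.3 CPM in ROSA 1 to 4. Every mutant library lay below every control library. Dnajb9 fell by 0.61 on the log2 scale (SE 0.12, edgeR adjusted p 0.017), the largest change among the chaperones, and of the 8 fits that left out 1 library it lost the call in the one without ROSA 2 (-0.54, adjusted p 0.055).

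Calr encodes calreticulin, the soluble lectin chaperone that binds calcium and glycoproteins (ENSMUSG00000003814, chromosome 8, 84841850 to 84846934). BMPR2 DELX 1 to 4 had 1252.5, 1304.5, 1396 and 1360 CPM and ROSA 1 to 4 had 1601, 1576, 1637 and 1550 CPM. The groups were tight and apart, and Calr fell by 0.26 (SE 0.06, edgeR adjusted p 0.029), a level 1.20-fold lower. Pdia3, the disulfide isomerase that works with calreticulin and calnexin, had 912, 842, 941 and 902 CPM against 1055, 1091, 1083 and 1001 CPM (ENSMUSG00000027248, chromosome 2, 121413775 to 121438687). It fell by 0.23 (SE 0.06, edgeR adjusted p 0.046), again with no overlap of the groups. Hsp90b1, encoding GRP94, the HSP90 of the ER, had 1124, 995, 1124 and 1031 CPM against 1254, 1266, 1407 and 1224 CPM (ENSMUSG00000020048, chromosome 10, 86690209 to 86705509). It fell by 0.27 (SE 0.07, edgeR adjusted p 0.046). Hsp90b1 shares exon sequence with the transcript Gm15344 on the same strand, so its count is uncertain there. Calls of this size were close to the threshold, since Pdia3 and Hsp90b1 were lost without any 1 of the 8 libraries (edgeR adjusted p 0.052 to 0.15 and 0.057 to 0.12) and Calr held without BMPR2 DELX 3 or ROSA 4 but in none of the other 6 such fits (0.040 to 0.093 over all 8). Their log2 fold changes stayed between -0.29 and -0.20 in these fits.

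Hspa5, the master ER chaperone BiP, did not pass. It had 961, 1037, 1042 and 1096 CPM in BMPR2 DELX 1 to 4 and 1111, 1186, 1426 and 1201 CPM in ROSA 1 to 4. The groups did not overlap, but the gap between BMPR2 DELX 4 and ROSA 1 was small and ROSA 3 stood highest. The log2 fold change was -0.25 ± 0.09 (edgeR adjusted p 0.094, 95% interval -0.44 to -0.06). Pdia4, a disulfide isomerase of the BiP complex, had 188 to 209 CPM against 220 to 261 CPM and a log2 fold change of -0.24 ± 0.07 (edgeR adjusted p 0.063). Calnexin (Canx), the membrane-bound partner of calreticulin, and Pdia6, another isomerase, had values of -0.17 ± 0.06 and -0.16 ± 0.06. For Canx, BMPR2 DELX 3 lay just above ROSA 4, and for Pdia6 the groups did not overlap.

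Dnajb11 and Dnajc3, J-domain cochaperones of BiP, had log2 fold changes of -0.12 ± 0.06 and -0.12 ± 0.07. The BiP nucleotide exchange factor Hyou1 had -0.13 ± 0.08, and the secreted ER stress protein Manf had -0.16 ± 0.09. Manf shares exon sequence with Rbm15b on the same strand, so its count is uncertain. Creld2, an ER folding factor, had -0.12 ± 0.12, and Sdf2l1, a partner of ERdj3, lay closest to 0 of the 14, at -0.07 ± 0.09. Creld2 had 75.9 CPM in ROSA 3 and 49.1 to 59.8 CPM in the other ROSA libraries.

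The order of the libraries was in part shared across chaperones. ROSA 3 was the highest ROSA library for 11 of the 14 genes, and ROSA 1 and ROSA 4 were the lowest for 6 and 7. BMPR2 DELX 3 was the highest BMPR2 DELX library for 8, and BMPR2 DELX 1 and BMPR2 DELX 2 were the lowest for 6 and 7. ROSA 3 and BMPR2 DELX 3 also had the lowest summed endothelial markers of their groups (567 and 294 CPM), and a link was not tested. The mean over the 14 genes, as log2 CPM minus each gene's mean over the 8 libraries, was 0.24 in ROSA 3 and 0.04 to 0.08 in the other ROSA libraries. BMPR2 DELX 3 lay at -0.04 and the other BMPR2 DELX libraries at -0.16 to -0.10. ROSA 3 had the highest chaperone level among the controls, while ROSA 1 and ROSA 2 had the highest summed level of immediate early genes. Without those 2 libraries, a setting added after seeing the data, the chaperone median was -0.23 and 0 chaperones were called, with Dnajb9 at -0.53 (edgeR adjusted p 0.15). In that fit 1.11% of all genes were called.

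**Figure D3:**
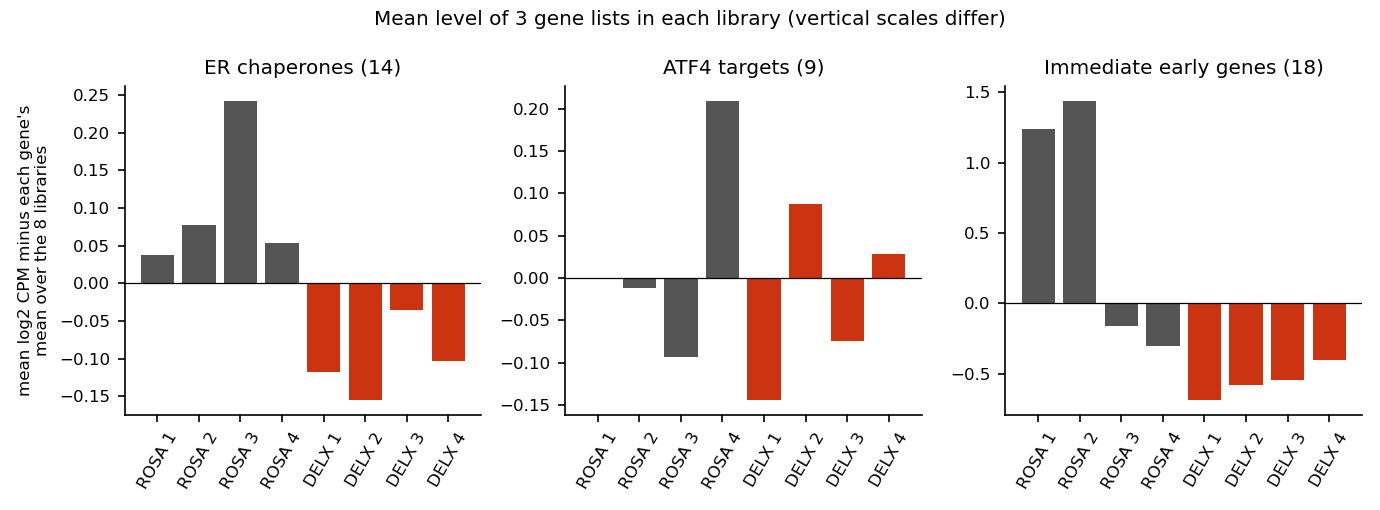
Mean log2 CPM of the 14 chaperones, 9 ATF4 targets and 18 immediate early genes in each library, relative to each gene's mean over the 8 libraries (grey: ROSA, red: BMPR2 DELX, vertical scales differ). The chaperones are above 0 in the 4 ROSA libraries and below 0 in the 4 BMPR2 DELX libraries, the ATF4 targets have no such split, and the mean of the immediate early genes is highest in ROSA 1 and ROSA 2.

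None (0) of the 7 genes of ER-associated degradation was called by edgeR, DESeq2 or voom, with a median log2 fold change of -0.06. Of all genes, edgeR called 9.10% and DESeq2 15.4%. An unadjusted p below 0.05 was reached by 0 of the 7, against 26.3% of all genes. Among only 7 genes, 0 edgeR calls are close to the share of all genes and are no result about the list. Edem1, a lectin that extracts glycoproteins for degradation, had 107, 108, 116 and 115 CPM in BMPR2 DELX 1 to 4 and 121, 120, 123 and 115 CPM in ROSA 1 to 4, a difference of -0.10 ± 0.05 (edgeR adjusted p 0.26). Herpud1 had 44.2, 54.9, 50.0 and 56.2 CPM against 53.0, 60.3, 52.2 and 55.5 CPM, at -0.11 ± 0.09. Sel1l, the adaptor of the ubiquitin ligase Hrd1, had 194, 196, 214 and 215 CPM against 207, 200, 225 and 230 CPM, at -0.07 ± 0.07. In each of these the groups overlapped. Syvn1, which encodes Hrd1 itself, and the channel subunits Derl1 and Derl2 had log2 fold changes of -0.03 ± 0.09, 0.04 ± 0.06 and -0.06 ± 0.07. The 95% intervals of the 6 genes other than Derl3 ran no further than from -0.30 to 0.18. Derl3, known from secretory cells, was at 0.437 to 0.789 CPM in all libraries, with a wide interval of -0.41 to 0.79. Derl1 has an annotated pseudogene of 95.4% identity.

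Among the sensors and factors 0 of 5 were called by edgeR, 1 by DESeq2 (Atf6, lower) and 0 by voom. Among all genes the called share was 9.10% with edgeR and 15.4% with DESeq2. An unadjusted p below 0.05 was found for 4 of the 5, with 3 lower and 1 higher, against 26.3% of all genes. Atf6, the sensor that is cleaved into a transcription factor, had 118, 124, 117 and 126 CPM in BMPR2 DELX 1 to 4 and 134, 135, 140 and 138 CPM in ROSA 1 to 4. Its groups were apart, with a log2 fold change of -0.18 ± 0.05 (edgeR adjusted p 0.064). Ern1, which encodes IRE1, had 54.1, 55.5, 62.6 and 61.9 CPM against 62.3, 66.8, 66.5 and 65.6 CPM, at -0.16 ± 0.07 (edgeR adjusted p 0.16), with BMPR2 DELX 3 just above ROSA 1.

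Xbp1 had 115, 122, 127 and 130 CPM in BMPR2 DELX 1 to 4 and 111, 119, 112 and 114 CPM in ROSA 1 to 4. Its log2 fold change was 0.11 ± 0.06 (edgeR adjusted p 0.24, 95% interval -0.01 to 0.24), of the other sign than the chaperones. Eif2ak3, encoding PERK, had 34.0 to 38.9 CPM against 30.3 to 34.9 CPM, at 0.17 ± 0.07 (edgeR adjusted p 0.19). Atf4 had 146, 177, 166 and 159 CPM against 177, 177, 179 and 198 CPM, at -0.17 ± 0.07 (edgeR adjusted p 0.16). ROSA 4 stood above the other libraries for Atf4, and BMPR2 DELX 2, at 176.5 CPM, lay just below ROSA 2, at 176.8 CPM, so the groups met without overlap. Counts per gene measure neither the splicing of Xbp1, the cleavage of ATF6 nor the translation of Atf4, which are the regulated steps.

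**Figure D4:**
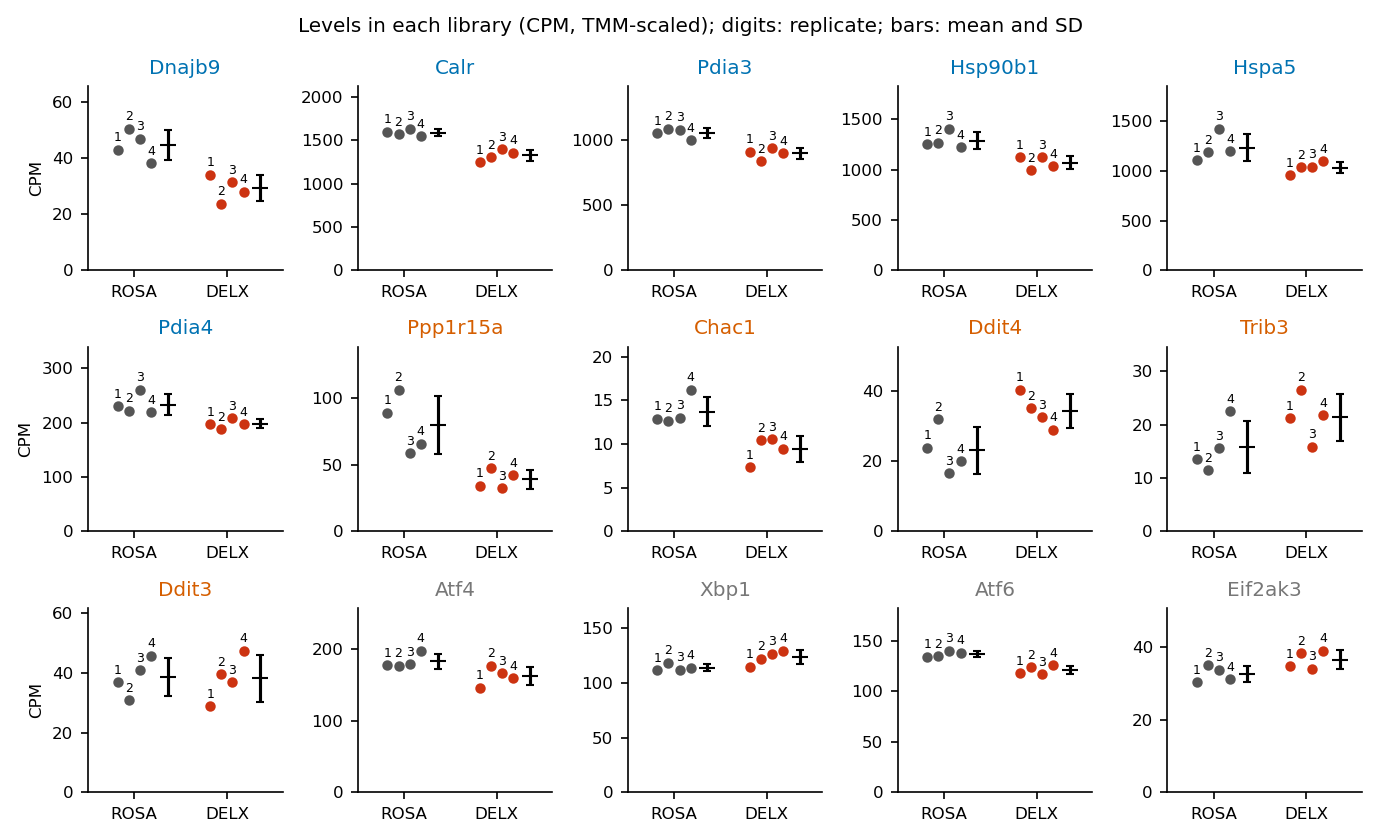
Level of 15 listed genes in each library (points, CPM with TMM scaling, axis from 0), with the mean and SD of the 4 ROSA and 4 BMPR2 DELX libraries. Chaperone names are blue, ATF4 targets orange and sensors grey, and the ROSA libraries of Ppp1r15a range from 58.9 to 106 CPM, all above the BMPR2 DELX libraries.

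The ATF4 targets had values on both sides of 0. Of 9 genes, 2 were called lower, 0 higher and 7 did not pass, where 5.15% of all genes were called lower. The log2 fold changes of the 9 ran from -1.03 to 0.57, with a median of -0.07. Their BMPR2 DELX libraries lay below all ROSA libraries for 2 genes (9.65% of all genes) and above them for 0 (8.32% of all genes). Set beside the chaperones, whose median was -0.16, they had 6 negative and 3 positive values, and the difference between these role groups was not tested.

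Ppp1r15a, encoding GADD34, the phosphatase subunit that reverses the phosphorylation of eIF2, had the largest change of the list (ENSMUSG00000040435, chromosome 7, 45522916 to 45526268). BMPR2 DELX 1 to 4 had 34.4, 47.7, 32.2 and 42.3 CPM and ROSA 1 to 4 had 89.0, 106, 58.9 and 65.7 CPM. All mutant libraries were lower, and the control libraries were uneven, highest in ROSA 1 and ROSA 2. Ppp1r15a fell by 1.03 on the log2 scale (SE 0.20, edgeR adjusted p 0.020), to a level 2.04-fold lower. The call was lost without BMPR2 DELX 1 (adjusted p 0.055) or ROSA 1 (0.059). Without both ROSA 1 and ROSA 2 the log2 fold change was -0.65 (edgeR adjusted p 0.098), a smaller size than with all libraries. Of the 18 immediate early genes, whose summed level was also highest in these 2 libraries, 5 were called lower (Fosl1, Nr4a2, Arc, Maff and Klf6), against 5.15% of all genes. Of the 8 fits without 1 library, Arc lost its call in 6 and Klf6 in 5, and Fosl1, Nr4a2 and Maff kept theirs in all 8. The part of the immediate early genes in the change of Ppp1r15a was not tested.

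Chac1 had 7.39, 10.5, 10.6 and 9.49 CPM in BMPR2 DELX 1 to 4 and 12.9, 12.7, 13.0 and 16.2 CPM in ROSA 1 to 4 (ENSMUSG00000027313, chromosome 2, 119351229 to 119354381). The groups did not overlap, with BMPR2 DELX 1 lowest and ROSA 4 highest. Chac1 fell by 0.53 (SE 0.13, edgeR adjusted p 0.037), and of the 8 fits without 1 library its call held in that without BMPR2 DELX 3 (edgeR adjusted p 0.049) and in no other. Over the 8 fits the log2 fold change ran from -0.59 to -0.42. Without ROSA 1 and ROSA 2 it was -0.61 (adjusted p 0.13).

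Ddit4, encoding REDD1, an inhibitor of mTORC1 that also answers to glucocorticoids and hypoxia, had 40.5, 35.3, 32.6 and 29.1 CPM in BMPR2 DELX 1 to 4 and 23.9, 32.2, 16.6 and 20.0 CPM in ROSA 1 to 4. ROSA 2 lay within the mutant range. The log2 fold change was 0.57 ± 0.19 (edgeR adjusted p 0.097), and DESeq2 gave an adjusted p of 0.030. Without ROSA 2 alone Ddit4 was at 0.77 and was called (edgeR adjusted p 0.031), and without ROSA 1 and ROSA 2 it was at 0.92 (edgeR adjusted p 0.037), then the only 1 of the 35 genes called.

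Vldlr had 34.8 to 42.6 CPM in BMPR2 DELX and 28.9, 25.4, 25.3 and 40.6 CPM in ROSA 1 to 4, at 0.37 ± 0.15 (edgeR adjusted p 0.16). Trib3, a pseudokinase that binds ATF4 and AKT, had 21.2, 26.5, 15.8 and 21.8 CPM against 13.5, 11.4, 15.6 and 22.5 CPM, at 0.44 ± 0.22 (edgeR adjusted p 0.24). For both, ROSA 4 lay among the mutant libraries. Without ROSA 4, Vldlr was at 0.55 and was called (edgeR adjusted p 0.015). ROSA 4 was the highest ROSA library for 6 of the 9 ATF4 targets, and the mean of the 9 genes was 0.21 there and at most 0.09 in any other library.

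The proapoptotic factor Ddit3 had 28.7, 39.4, 36.7 and 47.4 CPM in BMPR2 DELX 1 to 4 and 36.9, 30.8, 40.8 and 45.6 CPM in ROSA 1 to 4. Its libraries overlapped fully, at -0.01 ± 0.16 with a 95% interval of -0.37 to 0.34 and a sign that changed with the processing. A second gene model of the same name overlaps Ddit3 on the same strand, so its count is uncertain. Asns, asparagine synthetase, Atf5, an ATF4-related factor, and Sesn2, a leucine-sensing inhibitor of mTORC1, had log2 fold changes of -0.07 ± 0.10, -0.15 ± 0.15 and -0.15 ± 0.11. The lowest value of Atf5 was 183 CPM in BMPR2 DELX 1 and the highest 327 CPM in ROSA 4. Sesn2 was highest in ROSA 1 and ROSA 2, at 55.8 and 59.8 CPM, and turned to 0.032 without them.

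Counts by other settings followed the same genes in part. With DESeq2, which called 15.4% of all genes, 9 of the 35 were lower and 1 was higher, with Hspa5 (adjusted p 0.037), Pdia4 (0.017) and Atf6 (0.0064) besides the genes that edgeR called. With upper-quartile factors, which called 9.00% of all genes, 3 of the 35 were called, all lower.

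By level, the list spanned a wide range. Per length, as the mean CPM per kilobase of exon sequence in ROSA, Calr was highest at 552, followed by Pdia3 at 337, Hsp90b1 at 319, Hspa5 at 291 and Canx at 177. Atf5 had 130, the highest of the ATF4 targets, and Atf4 77.5, while Chac1 had 8.38, Vldlr 2.98 and Derl3 0.293. Of the 6 called genes, Calr, Pdia3 and Hsp90b1 were thus the 3 most abundant of the list, while Dnajb9, at 17.5, Ppp1r15a, at 27.2, and Chac1 were not among them. The 9 genes with an ERSE had log2 fold changes from -0.27 to 0.19, with a median of -0.16 and 2 called lower. The 5 with a CARE core ran from -0.53 to 0.44, with 1 called lower. Of all genes, 5.15% were called lower. Genes with either element lay on both sides of 0, the positive value with an ERSE being that of Derl3, the least abundant listed gene.

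**Figure D5:**
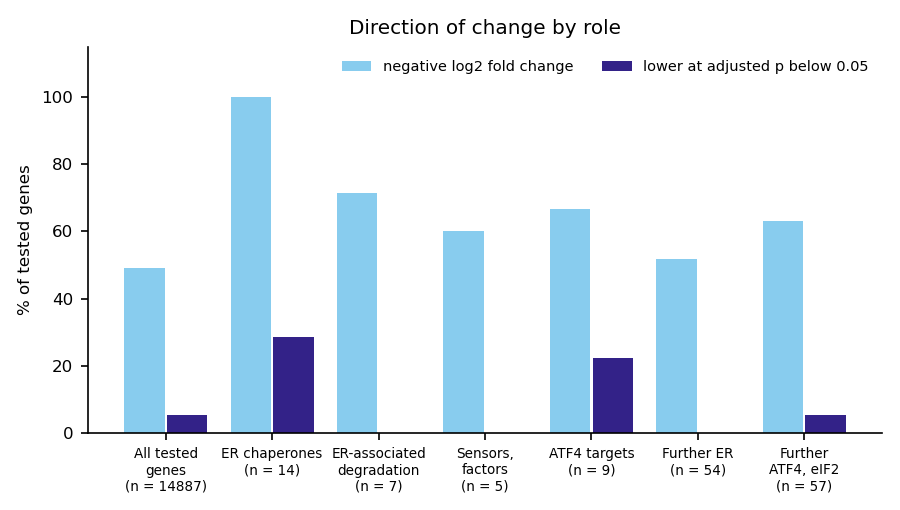
Share of tested genes with a negative log2 fold change (light bars) and share called lower at an adjusted p below 0.05 (dark bars), by role, with all 14887 tested genes at the left. Called lower were 28.6% of the 14 chaperones, 22.2% of the 9 ATF4 targets and 5.15% of all genes.

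Further genes of the pathway were read from lists drawn up by function. Of 54 more genes of ER folding, translocation, glycosylation and degradation, 0 were called by edgeR, against 9.10% of all genes. An unadjusted p below 0.05 was reached by 11 of them, against 26.3% of all genes. DESeq2, which called 15.4% of all genes, called 3 of the 54, and voom called 1. The median of the 54 was -0.004, with 28 negative and 26 positive values. Sec24d, a coat protein of ER export vesicles, and Kdelr2, a receptor that returns chaperones to the ER, had 0.22 ± 0.06 and 0.20 ± 0.06, and Sec63, a translocation factor that recruits BiP, had -0.25 ± 0.07, with edgeR adjusted p of 0.062, 0.068 and 0.066. These 3 were named after their values were seen.

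Of 57 tested further genes of ATF4 and eIF2, out of 58, 2 were called higher and 3 lower (8.77%), 52 did not pass, and the median was -0.07. This share is near the 9.10% called among all genes and is no result about the list, and the 5 genes are given as single genes. Slc7a1, a carrier of cationic amino acids, had 265 ± 17.5 CPM in ROSA and 196 ± 11.7 CPM in BMPR2 DELX. It fell by 0.44 (SE 0.07, edgeR adjusted p 0.0076) and passed without each library in turn, but not without both ROSA 1 and ROSA 2 (-0.35, adjusted p 0.092). Nupr1, a stress-induced chromatin protein, fell by 0.49 (SE 0.11), and Eif2b3, a subunit of the exchange factor of eIF2, by 0.28 (SE 0.06), with edgeR adjusted p of 0.024 and 0.025. Fam129a, encoding Niban, rose by 0.59 ± 0.12 (edgeR adjusted p 0.019), from 186 ± 23.9 to 281 ± 41.1 CPM, and the glutamine carrier Slc1a5 rose by 0.36 ± 0.08 (edgeR adjusted p 0.021). The call of Nupr1 ended without BMPR2 DELX 1, BMPR2 DELX 2 or ROSA 3, that of Slc1a5 without BMPR2 DELX 2, ROSA 1 or ROSA 2, and that of Fam129a without ROSA 2. Eif2b3 kept its call without BMPR2 DELX 1, BMPR2 DELX 4 or ROSA 4 and lost it without any of the other 5.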

How the data were processed

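The authors deposited 1 table of raw read counts per gene for each of 8 samples, with unstranded, same-strand and opposite-strand columns. Per the submitters' processing notes, STAR 2.5.2b, HTSeq and GRCm38 are named, without saying for which step. The annotation release and read layout are not given in the sources used here. The opposite-strand column, with 93.4% of strand-assigned counts, was used, and the 4 lines that name no gene (14.7% to 22.0% of a library's reads) were left out. GENCODE M21 gave symbols and positions for 49412 of 49671 gene IDs. Genes passing filterByExpr were tested across all genes by edgeR 4.0.16 in R 4.3.3 with TMM factors, quasi-likelihood, robust dispersion and no block. The SE is the log2 fold change over the square root of F. DESeq2 1.42.0, limma 3.58.1 voom and other alternatives are given at the end. The fit was tested on simulated data with planted log2 changes of 0.5, 1 and 2. It called 30 of 67, 52 of 67 and 66 of 66 of them, and 4.52% of its calls were false. Smaller changes, such as those of all chaperones but Dnajb9, were not simulated. The 95% intervals cover counting error and the spread between these libraries only, and floors of 3 counts cover counting error only. Members, role groups, lists and motifs were chosen with earlier results of these data known. Genes given in full were the called members, Hspa5, Xbp1, Atf4, Ddit3 and the 3 smallest p per role, and from each further list up to 3 called genes per direction. Annotated copies were sought with blastn 2.17.0 (95% identity, 200 bases).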

Additional observations from a re-analysis of the deposited data

Results flagged for a closer look

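Over 70 sets of 4 libraries (35 genes in 2 groups), 2 held a library far from the other 3, and chance gives about 1 in 20 such sets, or 3.5. Both were ROSA 4. Atf4 had 197.8 CPM there and 177 to 179 CPM in the other ROSA libraries, and Chac1 had 16.2 CPM there and 12.7 to 13.0 CPM in the others. Without ROSA 4 the log2 fold change of Chac1 was -0.44 (edgeR adjusted p 0.073).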

How the results depend on the processing

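Of 594 values of the 35 genes under the alternatives, 523 kept their sign and their side of the threshold, 49 lost the call, 8 gained it and 14 changed sign. Leaving out a library reduces the samples tested. Leaving out 1 library in turn gave 477 to 1266 called genes (1355 with all), 1 to 4 called members (6), 0 to 2 chaperones (4), 0 to 2 ATF4 targets (2), 0 to 1 further ER genes (0) and 2 to 5 further ATF4 and eIF2 genes (5). The fewest called genes were found without ROSA 2. DESeq2 called 2298 genes, 10 members, 1 sensor or factor, 3 further ER genes and 12 further ATF4 and eIF2 genes. Without ROSA 1 and ROSA 2 the counts were 172 genes, 1 member, 0 chaperones, 1 ATF4 target (Ddit4, higher) and 3 further ATF4 and eIF2 genes. Upper-quartile factors gave 3 members, 2 chaperones, 1 ATF4 target and 2 further ER genes, no count filter 3 members, 2 chaperones and 1 ATF4 target, the unstranded column 2 chaperones and voom 1 further ER gene. The cause of these differences was not tested. With the replicate block 4 members were called, 1 chaperone (Dnajb9, lower) and 3 ATF4 targets (2 lower and Ddit4 higher). Whether the replicate numbers of the labels pair the samples cannot be told from these values. The deviations of same-numbered libraries correlated at 0.00497, 0.21, 0.245 and 0.0935. BMPR2 DELX 2 and BMPR2 DELX 3 correlated best with the ROSA library of the same number. BMPR2 DELX 1 correlated best with ROSA 2 (0.179) and BMPR2 DELX 4 with ROSA 3 (0.107). The median of the ATF4 targets turned from -0.07 to 0.027 without ROSA 4 (range -0.14 to 0.027 without 1 library). Signs changed for 6 of the genes, none of them called. Ddit3 was at 0.020 with upper-quartile factors, 0.053 with voom, 8.1e-04 with no count filter and -0.14 to 0.11 without 1 library. Syvn1 was at 0.010 with upper-quartile factors and -0.078 to 0.063 without 1 library, Sdf2l1 at -0.10 to 0.015, Creld2 at -0.20 to 0.012 and Asns at -0.12 to 0.027 without 1 library, and Sesn2 at 0.032 without ROSA 1 and ROSA 2.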

Other observations

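Of the 9 tested amino acid carriers among the further ATF4 genes, 1 (Slc1a5) was called higher and 1 (Slc7a1) lower, and 7 did not pass, where 9.10% of all genes were called. Of the 11 aminoacyl-tRNA synthetases, 0 were called by edgeR, 4 had an unadjusted p below 0.05, all lower (26.3% of all genes had one), and 8 had a negative log2 fold change. Both subsets were taken by gene name after their values were seen.

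Over the 8 libraries, the genes whose log2 CPM was most like the mean of the 6 called members were Amot, Pvr, Arrdc4, Prkar2a and Oxr1, with Pearson r of 0.998, 0.993, 0.989, 0.989 and 0.987. The points share the separation of the 2 groups, so these values describe a common difference between groups as much as a common pattern within them.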
